A study of Mus musculus with 12 samples.

Results

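The comparison described here is that of mouse splenic B cells 33 h after activation with cells 10 h after activation, both taken before the first cell division. Its members are the 4 RNA-Seq libraries whose labels give 10 or 33 h of treatment, 2 per time point, of 12 libraries in the series. All cells came from C57BL/6 mice, by the study's methods males between 6 and 12 weeks old, with no genetic change named in the labels. B cells were isolated by negative selection, stained with the division dye CTV (CellTrace Violet) and cultured with 25 μg/ml LPS (lipopolysaccharide), a bacterial cell wall component that activates B cells through Toll-like receptor 4. Cells at 10 and 33 h were sorted as TCRβ- CD69+ B cells with the highest CTV, so that a cell which had divided fell outside the gate. The other 8 libraries hold naive cells, undivided cells at 3 h, and CD22+ CD138- expanded B cells and CD22- CD138+ plasmablasts from day 4 of separate, sparser cultures. The libraries of a stage are biological duplicates, and p-values rest on the spread of such pairs. Values per gene are RPKM, reads per kilobase of exon, scaled to each library's counts in tested genes times its TMM factor. The total counts of the 12 libraries lay between 23026619 and 60585587.

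A resting B cell sits outside the cell cycle. After stimulation it grows through a long first G1 phase, passes the restriction point when cyclin-dependent kinases inactivate the retinoblastoma family and release E2F factors, copies its DNA in S phase and prepares for mitosis in G2. E2F factors act on genes of the replication machinery, while genes of G2 and mitosis are held by the MuvB complex, which works with Mybl2 and Foxm1 at promoters that carry a CHR element. After division LPS-stimulated B cells can switch antibody class or become antibody-secreting plasmablasts.

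From 10 h to 33 h, 1288 of 12750 tested genes rose and 567 fell, which is 10.1% and 4.45% of those tested. Counts of list genes below are to be read against these shares. A gene was called when edgeR's glmTreat, which tests for a change beyond 1.5-fold in either direction, gave a Benjamini-Hochberg adjusted p under 0.05, and "rose" and "fell" are used for called genes alone. Of the 303 tested genes in 10 cell cycle lists, 208 rose, or 68.6%, and 2 fell, with a median log2 fold change of 1.86 against -0.02 over all tested genes. In 23 lists of other functions, 75 of 581 tested genes rose, 12.9%, and 50 fell, 8.61%, with a median of -0.0053. Cell cycle list genes made up 16.1% of all rises and 141 of the 562 rises beyond 4-fold, and 1005 of the rises lay in none of the 33 lists. In bulk libraries a lower level in each cell and fewer cells that express the gene cannot be told apart.

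**Figure D1:**
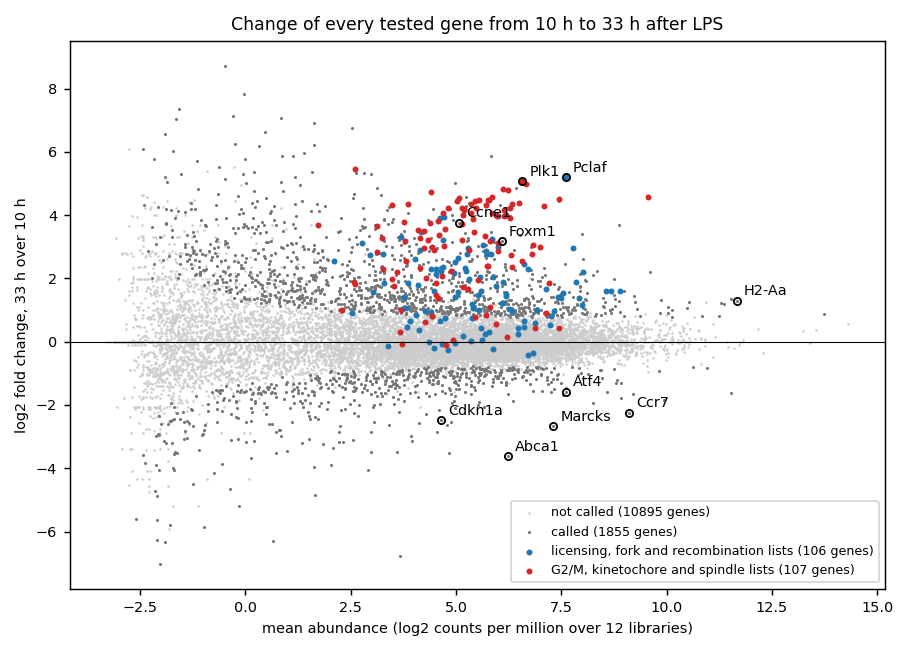
Each point is 1 of 12750 tested genes, with its mean abundance over 12 libraries (log2 CPM) on the x axis and its log2 fold change of 33 h over 10 h on the y axis. Genes of the G2/M, kinetochore and spindle lists (red, 107 genes) lie mostly above those of the licensing, fork and recombination lists (blue, 106 genes), and Plk1 and Pclaf stand at 5.07 and 5.20.

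Foxm1, Plk1 and Pclaf rose and Abca1 and Ccr7 fell, the first group being cell cycle genes and the second genes of lipid export and migration. Foxm1, a transcription factor of the G2/M program, measured 2.36 and 2.02 RPKM at 10 h and 18.7 and 21.3 RPKM at 33 h, a log2 fold change of 3.18 ± 0.11 (SE, as with every log2 fold change below; glmTreat adjusted p = 3.5e-09). Plk1, the kinase that drives mitotic entry, measured 2.19 and 2.16 RPKM at 10 h and 46.2 and 100.5 RPKM at 33 h, a change of 5.07 ± 0.30 (adjusted p = 1.5e-06). Both 33 h libraries lay far above both 10 h libraries for each gene. The 33 h libraries of Plk1 also differed from each other, and leaving out 33 h replicate 2 gave a change of 4.41. Pclaf, a partner of the sliding clamp PCNA, measured 5.22 and 3.69 RPKM at 10 h and 147 and 183 RPKM at 33 h (5.20 ± 0.15, adjusted p = 9.2e-10). Abca1, the transporter that exports cholesterol from cells, fell from 2.72 and 2.59 RPKM to 0.249 and 0.170 RPKM (-3.63 ± 0.26, adjusted p = 1.9e-06). Ccr7, the chemokine receptor that draws lymphocytes to T cell zones, fell from 310.3 and 366 RPKM to 85.9 and 57.3 RPKM (-2.24 ± 0.15, adjusted p = 1.7e-06). The 10 h and 33 h libraries of these 5 genes did not overlap. Over all tested genes, both 33 h libraries lay above both 10 h libraries in 35.2% and below them in 38.8%. Called list genes named below were mostly picked for large changes, so that separation of their libraries adds no further support.

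**Figure D2:**
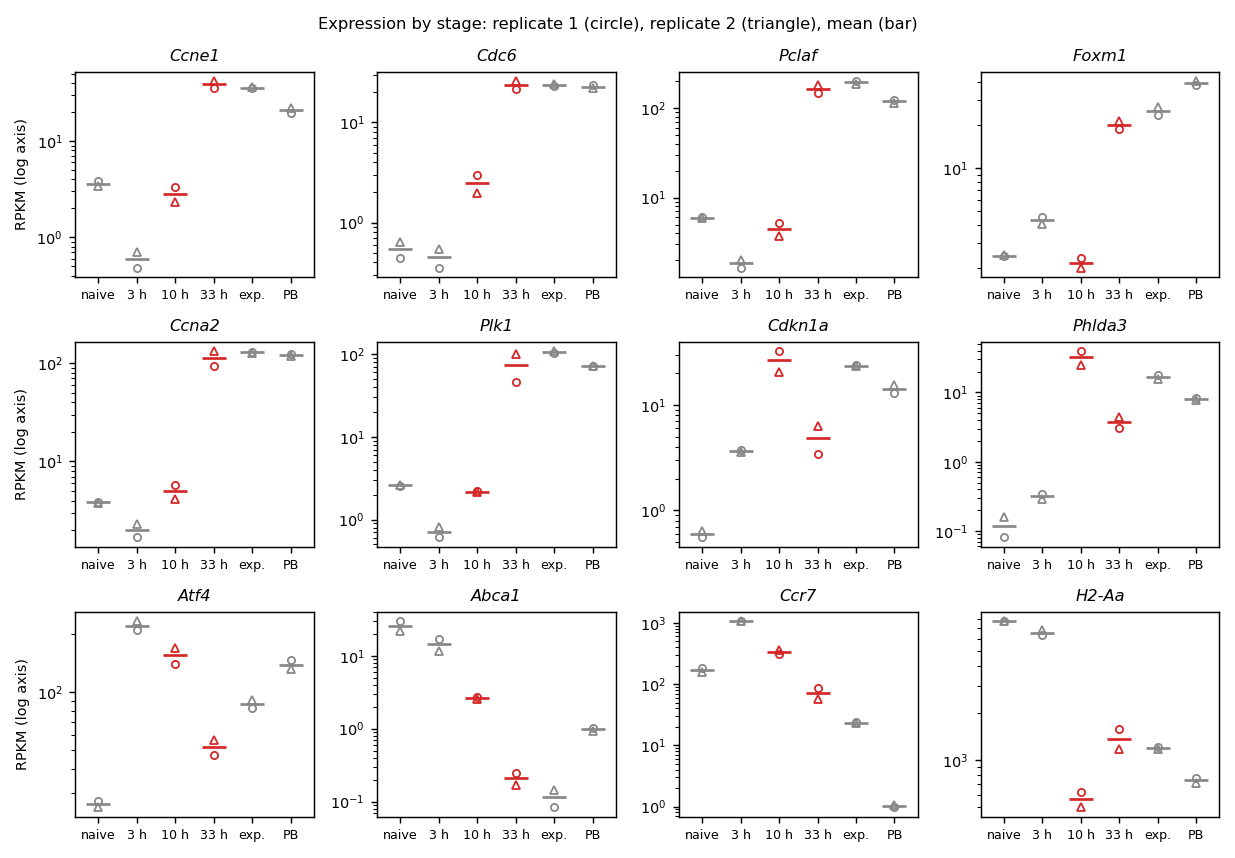
RPKM on a log axis for 12 genes at 6 stages (exp., expanded B cells; PB, plasmablasts), with circles for replicate 1, triangles for replicate 2 and bars for the mean of both; 10 h and 33 h are in red. The upper 6 panels are cell cycle genes that rose, with Plk1 at 2.19 and 2.16 RPKM at 10 h against 46.2 and 100.5 RPKM at 33 h, and the lower 6 hold genes that fell and H2-Aa, which rose.

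Genes that carry cells from G1 into S phase rose unevenly. In the list of G1 cyclins, kinases and inhibitors, 10 of 18 tested members rose and 2 fell. Ccne1 and Ccne2 encode the E cyclins, which switch on Cdk2 at the start of S phase. Ccne1 measured 3.35 and 2.35 RPKM at 10 h and 35.7 and 42.02 RPKM at 33 h (3.76 ± 0.15, adjusted p = 5.5e-09). Ccne2 measured 0.782 and 0.608 RPKM at 10 h and 5.37 and 5.74 RPKM at 33 h (2.99 ± 0.16, adjusted p = 6.7e-08). Cdkn2d, an inhibitor of Cdk4 and Cdk6, rose as well, from 3.55 and 2.87 RPKM to 19.8 and 17.5 RPKM (2.53 ± 0.14). Cyclin D2 (Ccnd2), at 140.5 and 115 RPKM at 10 h and 179.6 and 210.1 RPKM at 33 h, and its kinase Cdk4, at 233 and 225 RPKM at 10 h and 269 and 315 RPKM at 33 h, were not called, with changes of 0.61 ± 0.11 and 0.35 ± 0.11 (adjusted p = 0.64 and 1).

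Both genes of the cell cycle lists that fell encode inhibitors of cyclin-dependent kinases. Cdkn1a (p21) measured 32.4 and 20.7 RPKM at 10 h and 3.43 and 6.27 RPKM at 33 h (-2.48 ± 0.25, adjusted p = 6.7e-05). Cdkn1c (p57), named after its values were seen since it is the other of the 2 falls, measured 0.546 and 0.858 RPKM at 10 h and 0.186 and 0.132 RPKM at 33 h (-2.07 ± 0.33, adjusted p = 0.0012). Cdkn1a was lowest in naive cells at 0.593 ± 0.0548 RPKM (SD, n = 2), highest at 10 h at 26.6 ± 8.28 RPKM and stood again at 23.7 ± 0.481 RPKM in expanded B cells, so the 33 h libraries lay between stages with more of it.

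Among E2F, pocket protein and MuvB genes, 9 of 20 rose and none fell by glmTreat, while 3 fell by the quasi-likelihood F-test, which asks for any change and calls 23.2% of all tested genes up and 22.2% down. The largest rises were in the atypical repressors E2f8, from 1.39 and 1.09 RPKM to 23.8 and 27.7 RPKM (4.37 ± 0.14, adjusted p = 9.2e-10), and E2f7, from 0.133 and 0.193 RPKM to 3.04 and 3.19 RPKM (4.27 ± 0.19). Mybl2, the MuvB partner of S phase, rose from 10.5 and 7.60 RPKM to 66.2 and 70.6 RPKM (2.91 ± 0.13). E2f4 and Rbbp4, both abundant at 10 h, were not called: E2f4 measured 103 and 109 RPKM at 10 h and 109 and 127 RPKM at 33 h (0.16 ± 0.10) and the MuvB subunit Rbbp4 96.0 and 97.9 RPKM at 10 h and 115 and 124 RPKM at 33 h (0.30 ± 0.09), both with an adjusted p of 1.

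Most tested genes of the replication machinery rose. Of the origin licensing and firing list 21 of 28 tested members rose and none fell by glmTreat or by the F-test, with a median of 1.604. In the replication fork and chromatin assembly list 32 of 38 rose and none fell by glmTreat, with 1 falling by the F-test, and the median was 1.49. Cdc6, which loads the MCM helicase on origins, measured 2.98 and 1.96 RPKM at 10 h and 21.4 and 25.8 RPKM at 33 h (3.25 ± 0.19, adjusted p = 2.3e-07). The firing factors Mcm10, Ticrr and Cdc45 rose by 3.00, 2.97 and 2.77 on the log2 scale (adjusted p between 4.4e-09 and 8.3e-09). In all 3, both 33 h libraries lay above both 10 h libraries.

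At the fork, Clspn, which relays the replication checkpoint, measured 2.27 and 1.54 RPKM at 10 h and 29.5 and 30.7 RPKM at 33 h (3.97 ± 0.14, adjusted p = 3.6e-09). The flap nuclease and helicase Dna2 measured 0.882 and 0.622 RPKM at 10 h and 7.97 and 9.01 RPKM at 33 h (3.48 ± 0.22, adjusted p = 2.5e-07). Lig1, the ligase that joins lagging strand fragments, rose from 22.3 and 18.6 RPKM to 156 and 159 RPKM (2.95 ± 0.11). Members that were not called include the licensing genes Cdt1 (0.65 ± 0.12) and Orc2 (0.45 ± 0.09) and the polymerase subunits Pold2 (0.54 ± 0.12) and Pole4 (-0.43 ± 0.10). Pole4, at 96.5 and 90.4 RPKM at 10 h and 70.2 and 68.3 RPKM at 33 h, was lower in both 33 h libraries than in both 10 h libraries.

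The 200 bases before the annotated start (RefSeq, GRCm38.p6, the build of the files' mm10) are shown for Cdc6, the licensing gene with the largest rise. They are also shown for Chaf1a and Mcm7, which had the next largest rises among the licensing or fork genes searched that hold E2F letters there. These sequences were chosen after the values and motifs were seen. Capitals mark E2F letters (TTTCCCGC, TTTGGCGC, TTTCGCGC, TTTGCCGC or TTCCCGCC on either strand, of which TTTCCCGC and TTCCCGCC overlap by 7 letters in TTTCCCGCC) and CCAAT on either strand.
Cdc6, chr11:98907951-98908150, plus strand: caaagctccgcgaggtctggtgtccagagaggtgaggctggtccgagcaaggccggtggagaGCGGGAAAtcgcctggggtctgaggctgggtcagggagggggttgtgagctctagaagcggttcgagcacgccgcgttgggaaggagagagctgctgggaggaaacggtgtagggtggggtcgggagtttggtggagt
Chaf1a, chr17:56040216-56040415, plus strand: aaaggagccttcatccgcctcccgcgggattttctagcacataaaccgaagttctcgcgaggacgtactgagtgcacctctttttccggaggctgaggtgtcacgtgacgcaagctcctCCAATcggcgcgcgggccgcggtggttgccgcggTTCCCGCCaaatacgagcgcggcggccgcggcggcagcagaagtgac
Mcm7, chr5:138171884-138172083, minus strand: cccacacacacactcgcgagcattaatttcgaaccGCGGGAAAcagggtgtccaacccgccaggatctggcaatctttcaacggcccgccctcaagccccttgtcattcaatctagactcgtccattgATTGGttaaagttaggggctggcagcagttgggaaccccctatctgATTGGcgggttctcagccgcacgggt
In Cdc6 the E2F letters start 138 bases before the gene, in Chaf1a 47 bases and in Mcm7 165 bases before it. Chaf1a, a subunit of the CAF-1 histone chaperone, rose from 14.1 and 10.4 RPKM to 65.9 and 68.3 RPKM (2.45 ± 0.12), and the helicase subunit Mcm7 from 65.4 and 51.6 RPKM to 262 and 275 RPKM (2.20 ± 0.10). Windows from 250 bases before to 50 after the start were at hand for 9919 tested genes. E2F letters stood in 42% of the 81 licensing, fork and recombination genes with a window, in 13.3% of the 90 G2/M, kinetochore and spindle genes and in 8.2% of all 9919. Such a match describes letters, not binding.

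The supply of DNA precursors split into genes that rose and genes that did not. In the nucleotide synthesis list 7 of 30 tested members rose, none fell by glmTreat (3 by the F-test) and the median was 0.17. Genes that make or salvage deoxynucleotides were among the largest rises. Rrm2, the regulated subunit of ribonucleotide reductase, measured 8.49 and 4.997 RPKM at 10 h and 118 and 176 RPKM at 33 h (4.44 ± 0.22, adjusted p = 2.1e-07). Thymidine kinase Tk1 measured 4.34 and 2.97 RPKM at 10 h and 48.8 and 56.8 RPKM at 33 h (3.84 ± 0.17, adjusted p = 8.6e-09). Thymidylate synthase Tyms rose by 3.43 on the log2 scale. Cad, which starts pyrimidine synthesis, was at 126 and 116 RPKM at 10 h and 98.8 and 109 RPKM at 33 h (-0.22 ± 0.15), and the one-carbon enzyme Shmt2 at 293 and 299 RPKM at 10 h and 207 and 247 RPKM at 33 h (-0.38 ± 0.13), neither of them called (adjusted p = 1 for both). In naive cells Cad and Shmt2 stood at 27.8 ± 2.30 and 46.2 ± 1.98 RPKM (SD, n = 2).

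In homologous recombination, Fanconi and checkpoint genes, 24 of 40 tested members rose and none fell by glmTreat, against 2 by the F-test. Brip1, a helicase partner of Brca1, measured 0.612 and 0.439 RPKM at 10 h and 8.78 and 7.67 RPKM at 33 h (3.96 ± 0.18, adjusted p = 8.6e-09). Fancd2, the central Fanconi protein, measured 0.909 and 0.680 RPKM at 10 h and 11.3 and 12.96 RPKM at 33 h (3.92 ± 0.14, adjusted p = 2.3e-09). The nuclease subunit Eme1 rose by 3.30 and the recombination motor Rad54l by 3.22. By contrast the damage kinase Atm was at 13.4 and 11.4 RPKM at 10 h and 20.0 and 17.3 RPKM at 33 h (0.58 ± 0.14) and the adaptor Mdc1 at 17.0 and 19.1 RPKM at 10 h and 14.3 and 14.1 RPKM at 33 h (-0.35 ± 0.09), and neither was called (adjusted p = 0.77 and 1).

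Genes of G2 and mitosis rose most. In the G2/M list 27 of 31 tested members rose, in the kinetochore and centromere list 32 of 39 and in the spindle, kinesin and cytokinesis list 36 of 37, none falling by either test, with median log2 fold changes of 3.21, 2.55 and 3.98. Ube2c, the ubiquitin-conjugating enzyme of the anaphase-promoting complex, measured 4.20 and 4.20 RPKM at 10 h and 81.3 and 184 RPKM at 33 h (4.98 ± 0.33, adjusted p = 4.2e-06). Leaving out 33 h replicate 2 gave a change of 4.28. Cyclin A2 (Ccna2) measured 5.83 and 4.11 RPKM at 10 h and 93.4 and 132 RPKM at 33 h (4.50 ± 0.18, adjusted p = 1.8e-08). The phosphatase Cdc25c measured 0.492 and 0.409 RPKM at 10 h and 7.11 and 11.8 RPKM at 33 h (4.37 ± 0.26). For all 3 genes the time points did not overlap, and replicate 2 was the higher of the 33 h libraries. The checkpoint protein Bub3, at 70.8 and 67.6 RPKM at 10 h and 82.4 and 103 RPKM at 33 h, and Fzr1, an activator of the anaphase-promoting complex, at 40.4 and 40.1 RPKM at 10 h and 47.3 and 61.0 RPKM at 33 h, were not called (0.42 ± 0.10 and 0.43 ± 0.11, adjusted p = 1 for both).

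For the same view of the G2/M genes, the 200 bases before the start are shown for Plk1, the gene of that list with the largest rise. They are also shown for E2f8, the leading gene of the E2F list, and for Ube2c, Ccnb2 and Espl1. Among the G2/M genes searched, these last had the largest rises with both CHR and CCAAT letters in the stretch. Not every gene of the list was searched, so genes with larger rises than Ccnb2 and Espl1 may be missing. Capitals mark CHR (TTTGAA) and CCAAT on either strand.
Plk1, chr7:122159235-122159434, plus strand: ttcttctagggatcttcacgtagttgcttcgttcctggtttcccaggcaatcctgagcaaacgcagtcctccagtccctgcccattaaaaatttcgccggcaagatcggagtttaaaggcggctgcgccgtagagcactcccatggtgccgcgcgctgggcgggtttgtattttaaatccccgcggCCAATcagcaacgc
E2f8, chr7:48881597-48881796, minus strand: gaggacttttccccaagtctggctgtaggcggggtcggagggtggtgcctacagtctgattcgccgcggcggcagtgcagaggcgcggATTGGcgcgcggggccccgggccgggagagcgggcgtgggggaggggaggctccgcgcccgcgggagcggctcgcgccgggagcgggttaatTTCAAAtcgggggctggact
Ube2c, chr2:164769729-164769928, plus strand: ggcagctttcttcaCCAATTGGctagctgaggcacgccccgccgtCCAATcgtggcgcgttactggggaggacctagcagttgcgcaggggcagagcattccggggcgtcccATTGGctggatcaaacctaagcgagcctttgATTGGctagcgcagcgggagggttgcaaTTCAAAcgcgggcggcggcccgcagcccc
Ccnb2, chr9:70421555-70421754, minus strand: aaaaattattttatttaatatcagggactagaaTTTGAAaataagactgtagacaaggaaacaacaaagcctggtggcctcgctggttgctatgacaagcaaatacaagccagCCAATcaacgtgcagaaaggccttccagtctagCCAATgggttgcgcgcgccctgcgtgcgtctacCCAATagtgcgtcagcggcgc
Espl1, chr15:102296093-102296292, plus strand: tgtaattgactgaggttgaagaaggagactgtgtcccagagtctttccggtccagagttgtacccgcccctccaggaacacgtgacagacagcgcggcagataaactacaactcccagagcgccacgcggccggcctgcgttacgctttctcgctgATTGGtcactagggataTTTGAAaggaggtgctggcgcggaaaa
In Ube2c, E2f8 and Espl1 the CHR letters start 29, 20 and 27 bases before the gene, and in Ccnb2 167 bases before it, while the Plk1 stretch holds CCAAT 14 bases before the start and no TTTGAA. Ccnb2 (cyclin B2) rose from 1.66 and 1.58 RPKM to 23.1 and 42.6 RPKM (4.33 ± 0.25) and Espl1 (separase) from 1.35 and 1.07 RPKM to 19.1 and 26.3 RPKM (4.22 ± 0.17). Over the windows of 9919 tested genes, CHR letters stood in 57.8% of the 90 G2/M, kinetochore and spindle genes, in 14.8% of the 81 licensing, fork and recombination genes and in 14.5% of all. Both CHR and CCAAT stood in 47.8%, 6.17% and 6.09% of the same groups, and CCAAT with or without CHR in 71.1%, 60.5% and 43.1%.

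At the kinetochore, Birc5 (survivin), a subunit of the chromosomal passenger complex, measured 1.19 and 1.18 RPKM at 10 h and 21.1 and 32.1 RPKM at 33 h (4.48 ± 0.19, adjusted p = 8.6e-09). Cenpf measured 0.388 and 0.378 RPKM at 10 h and 6.62 and 10.4 RPKM at 33 h (4.47 ± 0.20). Ska1 and Nuf2, which tie kinetochores to microtubules, rose by 4.32 and 4.22, with Ska1 at 5.08 when 10 h replicate 1 was left out. Zwint and Mis12, abundant members of the same structure, were not called. Zwint measured 30.8 and 30.9 RPKM at 10 h and 32.7 and 36.2 RPKM at 33 h (0.16 ± 0.08) and Mis12 17.8 and 17.9 RPKM at 10 h and 25.7 and 26.5 RPKM at 33 h (0.55 ± 0.10).

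On the spindle, Depdc1b had the largest rise of any cell cycle list gene, from 0.0739 and 0.115 RPKM to 3.48 and 4.89 RPKM (5.47 ± 0.38, adjusted p = 3.8e-08). Cdca3 measured 2.28 and 2.01 RPKM at 10 h and 48.2 and 74.8 RPKM at 33 h (4.83 ± 0.19), the spindle protein Hmmr 0.913 and 0.757 RPKM at 10 h and 16.3 and 30.8 RPKM at 33 h (4.81 ± 0.26) and the cytokinesis scaffold Iqgap3 0.348 and 0.317 RPKM at 10 h and 8.60 and 9.21 RPKM at 33 h (4.74 ± 0.13). These 4 genes were picked for the largest called changes of the list, and in each both 33 h libraries lay above both 10 h libraries. Gtse1 was the member of the spindle list that was not called: it stood at 16.2 and 9.88 RPKM at 10 h and 17.4 and 27.2 RPKM at 33 h (0.77 ± 0.25, adjusted p = 0.38). Leaving out 10 h replicate 1 gave a call for it, at 1.18 (adjusted p = 0.047).

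Of 22 tested members of the condensin, cohesin, topoisomerase II and Ctcf list, 10 rose and none fell by glmTreat, against 2 by the F-test. Condensin subunit Ncapg measured 1.75 and 1.36 RPKM at 10 h and 26.9 and 35.8 RPKM at 33 h (4.32 ± 0.17, adjusted p = 4.4e-09). Topoisomerase Top2a measured 14.8 and 11.4 RPKM at 10 h and 148 and 189.9 RPKM at 33 h (3.69 ± 0.14, adjusted p = 8.3e-09). Esco2 and Cdca5 (sororin), which lock cohesin on replicated chromatids, rose by 4.19 and 3.18. The cohesin ring subunit Rad21 was at 51.9 and 55.6 RPKM at 10 h and 70.4 and 81.8 RPKM at 33 h (0.50 ± 0.12) and the insulator protein Ctcf at 66.6 and 72.1 RPKM at 10 h and 72.0 and 71.8 RPKM at 33 h (0.05 ± 0.09), not called (adjusted p = 1 for both), and the change of Ctcf was -0.01 when libraries were scaled by size alone.

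**Figure D3:**
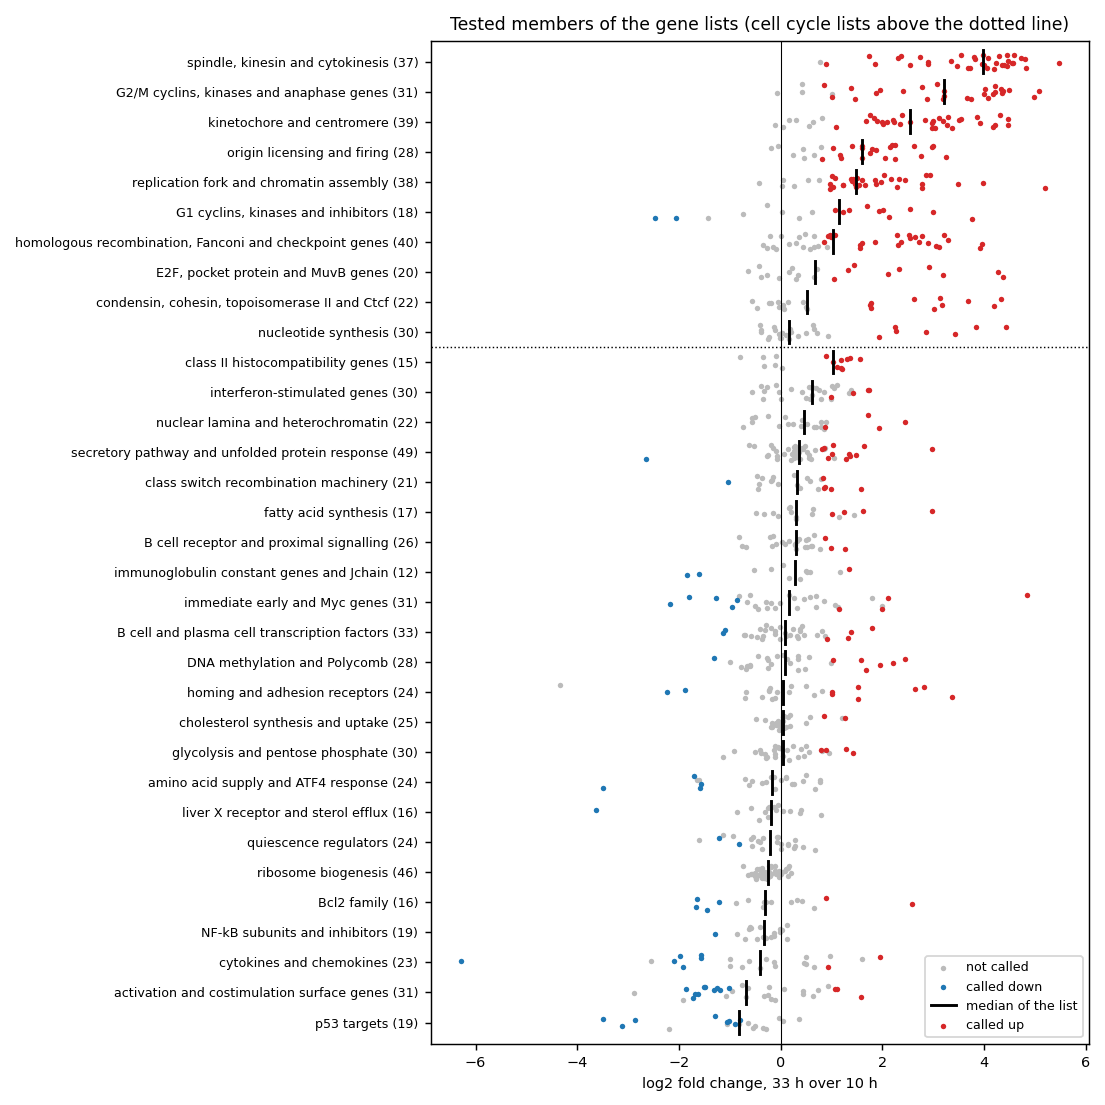
Log2 fold change of 33 h over 10 h (x axis) for the tested members of 10 cell cycle lists (above the dotted line) and 23 other lists, with the number tested in brackets; red members rose, blue members fell, gray members were not called, and the black bar is the list's median. Medians run from 3.98 for spindle genes to -0.82 for p53 targets.

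Across all 6 stages, replication genes and mitotic genes that rose differed in where they peaked. Of the 208 cell cycle list genes that rose, the highest stage mean lay at 33 h for 98, in expanded B cells for 73, in plasmablasts for 34, in naive cells for 2 and at 3 h for 1, and the lowest lay at 3 h for 138. Genes that rose could not peak at 10 h by the way they were chosen, and of all 1288 of them 363 peaked at 33 h. In the licensing list 19 of the 21 genes that rose peaked at 33 h, and in the fork list 25 of 32. In the spindle list 2 of 36 did, 25 peaking in expanded B cells and 9 in plasmablasts, and in the G2/M list 6 of 27 did, with 15 and 6 in the day 4 populations. Lig1, for example, went from 158 ± 2.24 RPKM at 33 h to 93.1 ± 0.0830 RPKM in expanded B cells (SD, n = 2), and Hmmr from 23.6 ± 10.3 to 49.5 ± 1.75 RPKM. These are orders of stage means without a test, and since day 4 cells were not gated on the division dye, time and gate cannot be told apart.

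The 2 libraries at 33 h differed in cell cycle genes and in some lists outside the cell cycle. Replicate 2 was above replicate 1 in all 36 spindle genes that rose, in all 32 kinetochore genes and in 26 of 27 G2/M genes, with median log2 gaps of 0.49, 0.34 and 0.55, but by a median of 0.07 in the 32 fork genes. Over all tested genes it was above in 5985 of 12750, with a median gap of -0.01. Outside the cell cycle, replicate 2 was above in 44 of 49 tested secretory and 44 of 46 ribosome biogenesis genes (medians 0.25 and 0.22). It was above in 1 of 30 interferon-stimulated, 1 of 15 class II and 3 of 24 quiescence genes (medians -0.42, -0.40 and -0.36). At 10 h the gap of licensing and fork genes ran the other way. There replicate 2 was above replicate 1 in 1 of 21 licensing genes that rose and 2 of 32 fork genes. The medians were -0.33 and -0.26. Of the 33 h libraries replicate 2 had the smaller total count, 36194490 against 60585587, and 4.94% against 6.89% of its counts in mitochondrial genes. The part of these gaps in the results was not tested. With either 33 h library left out, 206 (without replicate 1) and 200 (without replicate 2) cell cycle list genes rose.

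**Figure D4:**
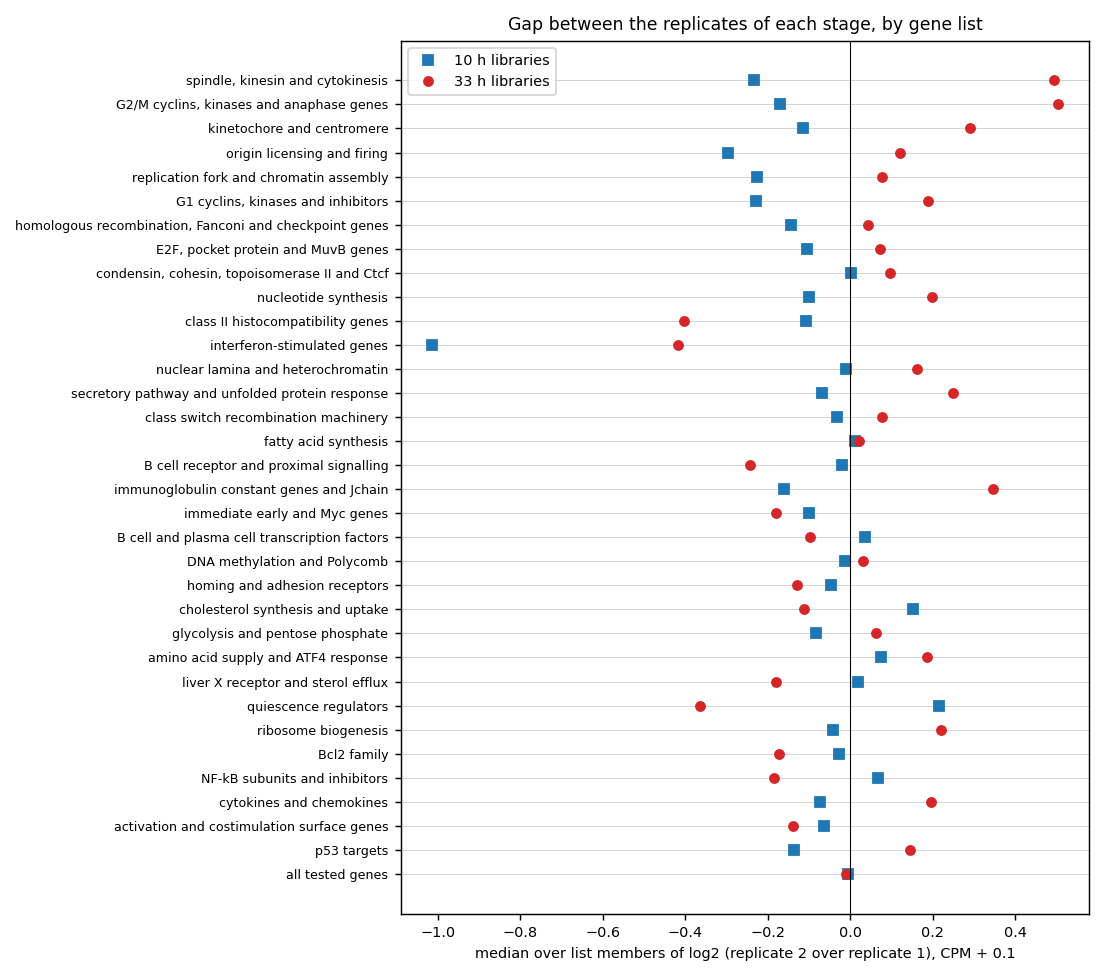
Median over the tested members of each list of the log2 ratio of replicate 2 to replicate 1 (CPM + 0.1), with blue squares for the 10 h and red circles for the 33 h libraries. Spindle and G2/M genes lie near 0.5 at 33 h, interferon-stimulated genes at -1.01 at 10 h, and all tested genes near 0.

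Outside the cell cycle, 8 of 19 tested genes in the p53 target list fell (42.1%, against 4.45% of all tested genes). That list also holds Trp53 and the Gadd45 genes. None of the 19 rose by either test, and the median was -0.82. Gadd45g, a stress-induced growth inhibitor, measured 4.36 and 5.70 RPKM at 10 h and 0.526 and 0.317 RPKM at 33 h (-3.50 ± 0.45, adjusted p = 0.00012). Phlda3, an inhibitor of Akt, measured 39.4 and 24.8 RPKM at 10 h and 3.03 and 4.41 RPKM at 33 h (-3.12 ± 0.22, adjusted p = 8.5e-07), and Plk2 4.15 and 2.62 RPKM at 10 h and 0.480 and 0.448 RPKM at 33 h (-2.86 ± 0.24, adjusted p = 3.6e-06). Zmat3 fell by 1.29 on the log2 scale. For each of the 4 genes both 33 h libraries lay below both 10 h libraries. Trp53 itself, at 192 and 219 RPKM at 10 h and 137 and 152 RPKM at 33 h, was not called (-0.51 ± 0.09, adjusted p = 1). The count of 8 became 4 without 10 h replicate 1, 5 without 33 h replicate 1 and 4 with DESeq2's Wald test.

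Death-promoting genes of the BH3-only class changed in both directions, with the rises lost under several alternatives. In the Bcl2 family list 4 of 16 tested members fell, the fourth being Bax, and 2 rose, Bad and Bik, which are BH3-only genes as well. These shares, 25% and 12.5%, stand against 4.45% and 10.1% of all tested genes. The 3 largest falls were in BH3-only genes, which set off mitochondrial apoptosis: Bbc3 (Puma) at 51.9 and 47.4 RPKM at 10 h and 17.1 and 14.3 RPKM at 33 h (-1.66 ± 0.16, adjusted p = 5.5e-05), Bmf at 11.6 and 12.99 RPKM at 10 h and 4.47 and 3.36 RPKM at 33 h (-1.64 ± 0.17, adjusted p = 0.00012) and Bcl2l11 (Bim) at 34.2 and 41.1 RPKM at 10 h and 13.8 and 13.7 RPKM at 33 h (-1.45 ± 0.10, adjusted p = 2.6e-06). All 3 were lower in both 33 h libraries than in both 10 h libraries. Bik was scarce, with 3 and 1 counts at 10 h and 19 and 9 counts at 33 h. Its ratio of summed, scaled counts at 33 h to those at 10 h was 6.47 (95% exact interval 2.26 to 25.4, counting error only). The survival gene Mcl1, at 153 and 149 RPKM at 10 h and 189 and 158 RPKM at 33 h, was not called (0.20 ± 0.11). The count of 2 rises was 0 without either 10 h library or without 33 h replicate 1, and 0 with DESeq2.

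Genes of the response to amino acid shortage fell in part. In the amino acid supply and ATF4 list 4 of 24 tested members fell (16.7%, against 4.45% of all tested genes) and none rose by glmTreat. By the F-test 6 fell and 4 rose, and the median was -0.16. Atf4, the transcription factor of that response, measured 140.4 and 170.0 RPKM at 10 h and 47.1 and 56.5 RPKM at 33 h (-1.58 ± 0.12, adjusted p = 6.3e-06). Its target Ddit3 (Chop) measured 19.8 and 25.3 RPKM at 10 h and 3.74 and 3.44 RPKM at 33 h (-2.64 ± 0.21, adjusted p = 3.3e-06). Trib3, another target, measured 17.4 and 21.1 RPKM at 10 h and 1.65 and 1.79 RPKM at 33 h (-3.49 ± 0.79, adjusted p = 0.029), and although its 4 libraries were well apart it was not called without any 1 of them (adjusted p between 0.085 and 0.17). The 3 h libraries of Trib3, which enter the same estimate of spread, stood at 1.03 and 13.1 RPKM. Trib3 was called when only the 4 libraries at 10 and 33 h were fitted. The part of the 3 h libraries in the lost calls was not tested. Pycr1 of proline synthesis and Cth of cysteine synthesis fell by 1.71 and 1.58, and Pycr1 was not called by DESeq2 (adjusted p = 0.068). The transporter subunit Slc3a2 measured 87.7 and 89.5 RPKM at 10 h and 63.4 and 73.7 RPKM at 33 h (-0.37 ± 0.12, adjusted p = 1), which was not called.

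Secretory genes rose in part. Of 49 tested members of the secretory pathway and unfolded protein response list 11 rose (22.4%) and 1, Ddit3, fell (2.04%), with a median of 0.36. Over all tested genes 10.1% rose and 4.45% fell. By the F-test 29 of the 49 rose and 4 fell. Derl3, a factor for the degradation of misfolded proteins, measured 3.53 and 2.26 RPKM at 10 h and 19.5 and 26.9 RPKM at 33 h (2.98 ± 0.21, adjusted p = 1.4e-06). Creb3l2, a secretory transcription factor, rose from 0.927 and 0.861 RPKM to 2.17 and 3.45 RPKM (1.63 ± 0.22) and Sdf2l1 from 36.5 and 25.8 RPKM to 73.5 and 102 RPKM (1.48 ± 0.17). In all 3, replicate 2 was the higher of the 33 h libraries. The chaperone Hspa5 was at 433 and 378 RPKM at 10 h and 515 and 670.2 RPKM at 33 h and not called (0.55 ± 0.11, adjusted p = 0.96). Summed over 5 plasma cell markers, the level was 205.5 and 153.6 CPM, the count scaled to library size, at 10 h and 240.1 and 377.4 CPM at 33 h. Most of that was Xbp1, at 111.8 and 87.1 CPM at 10 h and 187.6 and 293.4 CPM at 33 h. Jchain went from 69.4 and 37.4 CPM to 14.5 and 19.2 CPM. Of the 5, 2 rose and 1 fell, and Tnfrsf17, a receptor of plasma cells, was at 0 CPM in 3 of the 4 libraries. Sdc1, the gene of the plasmablast surface protein CD138, measured 0.598 and 0.441 RPKM at 10 h and 2.19 and 2.58 RPKM at 33 h (2.17 ± 0.26). The part of these markers in the rise of secretory genes was not tested.

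Of 33 B cell and plasma cell transcription factors 4 rose (12.1%), Pou2af1 among them, and 2 fell (6.06%), Bcl6 and Stat5a, shares near the 10.1% and 4.45% of all tested genes. Zbtb32 measured 50.8 and 34.4 RPKM at 10 h and 126 and 169 RPKM at 33 h (1.79 ± 0.30, adjusted p = 0.0065) and the homeobox factor Hhex 10.7 and 11.7 RPKM at 10 h and 33.7 and 24.5 RPKM at 33 h (1.38 ± 0.16, adjusted p = 0.00038). Xbp1, which drives secretory genes, rose from 61.7 and 48.2 RPKM to 109 and 168 RPKM (1.33 ± 0.28, adjusted p = 0.03). Bcl6, the repressor of the plasma cell program, fell from 17.2 and 20.2 RPKM to 9.91 and 6.999 RPKM (-1.14 ± 0.15, adjusted p = 0.0028), while Irf4, at 128 and 136 RPKM at 10 h and 73.3 and 102 RPKM at 33 h, was not called (-0.59 ± 0.16). The count of rises was 2 without 10 h replicate 2 and 1 without 33 h replicate 2, with Zbtb32 and Xbp1 then not called (adjusted p between 0.054 and 0.24), and DESeq2 did not call Xbp1 (adjusted p = 0.19).

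Among 12 tested immunoglobulin constant genes and Jchain, 1 rose (8.33%) and 2 fell (16.7%), against 10.1% and 4.45% of all tested genes. Ighd, the gene of IgD, measured 1185 and 1416 RPKM at 10 h and 474 and 246 RPKM at 33 h (-1.85 ± 0.25, adjusted p = 0.0016), and it was not called when only the 4 libraries at 10 and 33 h were fitted (adjusted p = 0.053). Ighg2b measured 8.88 and 8.37 RPKM at 10 h and 18.2 and 25.7 RPKM at 33 h (1.34 ± 0.16, adjusted p = 0.0009), a level that reads from near-identical gamma genes make uncertain. Jchain, whose product joins IgM and IgA, fell from 32.8 and 17.7 RPKM to 7.22 and 9.43 RPKM (-1.61 ± 0.31, adjusted p = 0.017), yet it was not called without 10 h replicate 1 (-1.09), 33 h replicate 1 (-1.42) or 33 h replicate 2 (-1.80), nor by DESeq2 (adjusted p = 0.098). The abundant Ighm (0.57 ± 0.13) and Igkc (0.38 ± 0.14) were not called. In the class switch recombination list 5 of 21 rose (23.8%), among them Polh, Msh6 and Paxip1, and 1, Shld1, fell (4.76%). The polymerase Polh, which copies damaged DNA, measured 13.9 and 14.6 RPKM at 10 h and 25.7 and 30.9 RPKM at 33 h (0.99 ± 0.12, adjusted p = 0.0061), and it was not called without 33 h replicate 2 (0.86, adjusted p = 0.064). Shld1 was not called without 10 h replicate 2 or 33 h replicate 1.

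Surface genes of the activation and costimulation list fell in part. Of 31 activation and costimulation genes 10 fell (32.3%) and 3 rose (Cd38, Cd24a and Slamf1), with a median of -0.68. Slamf7 measured 42.5 and 43.0 RPKM at 10 h and 12.8 and 13.8 RPKM at 33 h (-1.68 ± 0.10, adjusted p = 4e-07), the cytokine receptor Il6ra 4.18 and 5.04 RPKM at 10 h and 1.27 and 1.55 RPKM at 33 h (-1.72 ± 0.13, adjusted p = 6.1e-06) and the PD-1 ligand Pdcd1lg2 2.82 and 2.96 RPKM at 10 h and 1.01 and 0.844 RPKM at 33 h (-1.63 ± 0.24, adjusted p = 0.0015). For each, both 33 h libraries lay below both 10 h libraries. Naive cells held more Il6ra and Pdcd1lg2 than the 10 h libraries, at 8.51 ± 0.353 and 7.20 ± 0.199 RPKM (SD, n = 2). They held less Slamf7, at 25.4 ± 0.146 RPKM. Cd83 stood at 227 and 221 RPKM at 10 h and 209.5 and 148 RPKM at 33 h and was not called (-0.32 ± 0.14). Cd69 encodes a protein on which the cells were gated, and is named after its values were seen. Cd69 measured 30.4 and 33.2 RPKM at 10 h and 16.9 and 14.6 RPKM at 33 h (-1.01 ± 0.18, adjusted p = 0.036) and was not called without any 1 of the 4 libraries (adjusted p between 0.0585 and 0.19), nor by DESeq2.

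Inflammatory mediators fell more often than they rose. Of 23 tested cytokines and chemokines 6 fell (26.1%) and 2 rose (8.7%), Tgfb1 and Tnfsf14, with a median of -0.40. Over all tested genes 4.45% fell and 10.1% rose. Il1b had 87 and 80 counts at 10 h and 2 and 0 counts at 33 h, so that the ratio of the summed, scaled counts at 33 h to those at 10 h was 0.011 (95% exact interval 0.0013 to 0.041, counting error only). Cxcl10 measured 15.4 and 11.3 RPKM at 10 h and 3.51 and 3.24 RPKM at 33 h (-1.98 ± 0.21, adjusted p = 6.4e-05). Of 19 NF-kB subunits and inhibitors 1 fell (5.26%, near the share of all tested genes) and none rose, 9 and 0 by the F-test, with a median of -0.33. Nfkbiz, an atypical member of the NF-kB inhibitor family, measured 88.5 and 90.8 RPKM at 10 h and 39.2 and 33.8 RPKM at 33 h (-1.30 ± 0.11, adjusted p = 3.9e-05). Nfkb1 measured 192 and 187 RPKM at 10 h and 132 and 122 RPKM at 33 h (-0.58 ± 0.07, not called). Among 24 quiescence regulators 2 fell (8.33%), namely Klf6 and the antiproliferative gene Btg1, and none rose (11 and 1 by the F-test). Btg1 went from 45.1 and 49.7 RPKM to 23.8 and 17.3 RPKM (-1.20 ± 0.13, adjusted p = 0.00058). The 2 falls were 1 without 10 h replicate 2 or 33 h replicate 2. The 2 rises among cytokines were 1 without either 10 h library, and the 6 falls were 3 with at least 10 counts asked of each of the 4 libraries.

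Immediate early and Myc network genes changed in both directions, with 4 of 31 tested members rising (Mxd3, Mxd4, Dusp1 and Dusp6) and 5 falling (Fosl1, Ier5, Dusp4, Jun and Myc). The share that rose, 12.9%, was near the 10.1% of all tested genes, and 16.1% fell, against 4.45%. Mxd3 and Mxd4 encode proteins that pair with Max in place of Myc and repress. Mxd3 measured 0.400 and 0.468 RPKM at 10 h and 12.7 and 12.3 RPKM at 33 h (4.85 ± 0.24, adjusted p = 6.2e-09) and Mxd4 6.70 and 6.62 RPKM at 10 h and 37.2 and 20.1 RPKM at 33 h (2.11 ± 0.23, adjusted p = 0.00017). In both genes the 33 h libraries were above the 10 h libraries, tightly for Mxd3 and with replicate 1 the higher for Mxd4. The count of falls was 2 without 10 h replicate 2 or 33 h replicate 2 and 3 without 33 h replicate 1, and the count of rises was 2 without 10 h replicate 1.

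Homing receptors changed in both directions. Of 24 homing and adhesion receptors 7 rose (29.2%) and 2, Ccr7 and Cxcr4, fell (8.33%), against 10.1% and 4.45% of all tested genes. Itgb7, the beta chain of gut-homing integrins, measured 1.69 and 0.959 RPKM at 10 h and 17.7 and 10.2 RPKM at 33 h (3.38 ± 0.28, adjusted p = 1.3e-05), Itgam 0.648 and 0.333 RPKM at 10 h and 4.00 and 2.98 RPKM at 33 h (2.81 ± 0.36, adjusted p = 0.00031) and the sphingosine-1-phosphate receptor S1pr3 0.630 and 0.719 RPKM at 10 h and 3.88 and 4.52 RPKM at 33 h (2.64 ± 0.17, adjusted p = 2.9e-07). Naive cells held more Itgb7 and S1pr3, at 152 ± 4.87 and 7.24 ± 0.126 RPKM (SD, n = 2), than the 33 h libraries did. Cxcr5, the follicle receptor, was not called at 292 and 309 RPKM at 10 h and 249.4 and 214 RPKM at 33 h (-0.37 ± 0.09). The count of rises was 4 without 10 h replicate 2, that of falls 1 without 33 h replicate 1, and the change of Itgam was 3.40 without 10 h replicate 1.

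Itgam is also a myeloid marker. The 11 myeloid markers together gave 17.2 and 11.1 CPM at 10 h and 35.7 and 25.9 CPM at 33 h, of which Itgam was 3.06, 1.56, 17.9 and 13.5 CPM, and 1 of the 11 rose. S100a8, Fcgr1 and Mpo were at 0 CPM in all 4 libraries, and Lyz2 in 3 of them. The 10 T cell markers gave between 23.4 and 29.7 CPM, nearly all of it from Lck, with Cd3e, Cd4 and Thy1 at 0 in all 4 libraries. Natural killer and erythroid markers summed to at most 1.59 and 2.39 CPM, while 6 B cell markers gave between 4137 and 5177 CPM. No T cell, natural killer or erythroid marker was called.

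In lipid metabolism, desaturases rose and most other enzymes did not. Of 17 fatty acid synthesis genes 4 rose (23.5%, against 10.1% of all tested genes) and none fell by glmTreat. By the F-test 9 rose and 1 fell. All 4 that rose by glmTreat introduce double bonds. Fads2 measured 1.89 and 1.95 RPKM at 10 h and 16.5 and 13.7 RPKM at 33 h (2.98 ± 0.17, adjusted p = 1.1e-07), Fads1 4.55 and 5.08 RPKM at 10 h and 14.5 and 15.2 RPKM at 33 h (1.63 ± 0.15, adjusted p = 3.4e-05) and Scd1 147 and 148 RPKM at 10 h and 390.0 and 312 RPKM at 33 h (1.25 ± 0.11, adjusted p = 6.9e-05). Scd2 rose by 1.02. Fatty acid synthase, Fasn, at 97.4 and 98.3 RPKM at 10 h and 77.5 and 78.6 RPKM at 33 h (-0.33 ± 0.11), and the citrate lyase Acly (-0.16 ± 0.09) were not called. In cholesterol synthesis and uptake 2 of 25 rose, Tm7sf2 and Acat2, a share of 8% against 10.1% of all tested genes. Srebf2, the regulator of the pathway, stood at 197 and 197 RPKM at 10 h and 184 and 166 RPKM at 33 h (-0.17 ± 0.08, not called). One of the 2 rises, Tm7sf2 (1.26 ± 0.20), was not called without 10 h replicate 2 (adjusted p = 0.066) or 33 h replicate 1 (adjusted p = 0.053). Abca1 was the sole fall by glmTreat among 16 liver X receptor and sterol efflux genes, 6.25% against 4.45% of all tested genes. None of the 16 rose by glmTreat, with Npc2 at 0.39 ± 0.12, while 3 rose and 3 fell by the F-test. Without 33 h replicate 2, 1 gene of that list rose, and without 33 h replicate 1 no cholesterol gene did, against 1 without any other library.

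Most class II genes, which present antigen to T cells, rose. Of 15 tested members 9 rose (60%, against 10.1% of all tested genes) and none fell by glmTreat, against 2 by the F-test, with a median of 1.04. H2-Aa, which encodes the alpha chain of I-A, measured 619 and 496 RPKM at 10 h and 1574 and 1174 RPKM at 33 h (1.30 ± 0.13, adjusted p = 0.00019). H2-DMb1, of the peptide exchange factor, measured 15.4 and 13.9 RPKM at 10 h and 48.1 and 38.4 RPKM at 33 h (1.56 ± 0.12, adjusted p = 6.8e-06). H2-Eb1 and H2-Oa rose by 1.21 and 1.37, H2-Oa not being called when only the 4 libraries were fitted (adjusted p = 0.067). Both 33 h libraries were higher for these 4 genes, with replicate 1 above replicate 2. Naive cells held 7790.1 ± 5.24 RPKM of H2-Aa (SD, n = 2), and 12 of the 15 genes had their highest mean there. The protease Ctss was not called at 329 and 306 RPKM at 10 h and 276 and 226 RPKM at 33 h (-0.34 ± 0.09). With libraries scaled by size alone, 1 of the 15 fell.

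Of 26 B cell receptor and proximal signalling genes 3 rose, the third being Siglecg, and none fell by glmTreat. The share that rose by glmTreat, 11.5%, was near the 10.1% of all tested genes. By the F-test 16 of the 26 rose and 3 fell, where 23.2% of all tested genes rose and 22.2% fell. Cd22, an inhibitory receptor that the day 4 gates used, measured 89.5 and 81.4 RPKM at 10 h and 238 and 171 RPKM at 33 h (1.26 ± 0.12, adjusted p = 0.0002). The inhibitory Fc receptor Fcgr2b measured 79.0 and 70.2 RPKM at 10 h and 154 and 144 RPKM at 33 h (0.996 ± 0.10, adjusted p = 0.0017). The receptor chain Cd79a, at 463 and 454 RPKM at 10 h and 767 and 626 RPKM at 33 h, was not called (0.60 ± 0.09). Without 33 h replicate 1, 2 genes of the list fell.

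Calls of interferon-stimulated genes depended on single libraries. With all libraries the share that rose by glmTreat, 13.3%, was near the 10.1% of all tested genes, while 9 rose by the F-test. Of 30 tested members 4 rose (Ifih1, Oas2, Oas1a and Isg15), none fell by glmTreat (1 by the F-test) and the median was 0.62, but without 10 h replicate 1 the count was 14 and the median 1.38, and without 10 h replicate 2 they were 1 and 0.18. Without 33 h replicate 1 they were 1 and 0.34. The RNA sensor Ifih1 measured 7.76 and 5.09 RPKM at 10 h and 22.8 and 19.9 RPKM at 33 h (1.73 ± 0.17, adjusted p = 6e-05). Isg15 measured 78.6 and 52.2 RPKM at 10 h and 134 and 127 RPKM at 33 h (0.99 ± 0.16, adjusted p = 0.025) and Oas1a 8.58 and 3.39 RPKM at 10 h and 19.0 and 13.1 RPKM at 33 h (1.41 ± 0.33, adjusted p = 0.039). Isg15 was not called without 10 h replicate 2 (0.73), 33 h replicate 1 (0.96) or 33 h replicate 2 (1.04), nor Oas1a without 10 h replicate 2 (0.91) or 33 h replicate 1 (1.12), and Oas1a was 2.25 without 10 h replicate 1. Replicate 1 was the higher 10 h library for all 3 genes, and DESeq2 called neither Isg15 nor Oas1a (adjusted p = 0.13 and 0.1). Oasl1, at 147 and 97.1 RPKM at 10 h and 96.7 and 96.0 RPKM at 33 h, was not called (-0.34 ± 0.20).

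Ribosome biogenesis, a measure of growth, gave no call. None of 46 ribosome biogenesis genes was called in either direction by glmTreat, while by the F-test none rose and 23 fell, with a median of -0.26. The nucleolar helicase Ddx21 was at 188 and 190.4 RPKM at 10 h and 150.2 and 176 RPKM at 33 h (-0.21 ± 0.09, adjusted p = 1). Of 30 glycolysis and pentose phosphate genes 4 rose (Hk1, Pfkm, Ldha and Tpi1) and none fell by glmTreat. By the F-test 11 rose and 6 fell. The share that rose by glmTreat, 13.3%, was near the 10.1% of all tested genes, and the median was 0.036. The hexokinase Hk1 measured 17.7 and 16.7 RPKM at 10 h and 43.2 and 40.3 RPKM at 33 h (1.278 ± 0.09, adjusted p = 9.2e-06) and Pfkm 1.73 and 1.45 RPKM at 10 h and 4.52 and 4.03 RPKM at 33 h (1.43 ± 0.15, adjusted p = 0.0002). Lactate dehydrogenase Ldha measured 401 and 363 RPKM at 10 h and 631 and 797 RPKM at 33 h (0.90 ± 0.11), not called without 10 h replicate 2 (0.83, adjusted p = 0.098) or 33 h replicate 2 (0.73, adjusted p = 0.15), and the count of rises was 2 without the former. Aldoa, at 910.4 and 934 RPKM at 10 h and 677 and 735 RPKM at 33 h, was not called (-0.39 ± 0.07).

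Outside all lists, the 12 largest rises among genes with a mean of at least 3 log2 CPM ran from 3.89 to 5.86, and the 12 largest falls from -2.14 to -6.78. Several of the rises are of genes linked to the cell cycle. Tcf19 measured 1.45 and 1.09 RPKM at 10 h and 42.7 and 41.0 RPKM at 33 h (5.03 ± 0.14, adjusted p = 5.5e-10), the Cdk phosphatase Cdkn3 1.21 and 1.03 RPKM at 10 h and 13.5 and 24.6 RPKM at 33 h (4.07 ± 0.30), and Prr11 and Shcbp1 rose by 4.57 and 4.20. The helicase Pif1 rose by 4.63, or 4.02 without 33 h replicate 2, and the pseudogene Ccnb1-ps by 4.29, or 3.66 without it, a value that reads of its near-identical parent Ccnb1 make uncertain.

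Bhlha15 and Hid1 stood far higher in plasmablasts than at 33 h. Bhlha15 (Mist1), a transcription factor of secretory cells, measured 0.161 and 0.159 RPKM at 10 h and 2.69 and 6.70 RPKM at 33 h (4.84 ± 0.55, adjusted p = 4.3e-05; 4.07 without 33 h replicate 2) and 118 ± 0.725 RPKM in plasmablasts (SD, n = 2). Hid1 measured 0.0385 and 0.00817 RPKM at 10 h and 1.12 and 2.00 RPKM at 33 h (5.86 ± 1.04, adjusted p = 4.3e-05), 7.36 without 10 h replicate 1 and 5.27 without 10 h replicate 2, and 96.0 ± 5.14 RPKM in plasmablasts. Both were scarce at 10 h. Galectin-1 (Lgals1) measured 5.25 and 4.07 RPKM at 10 h and 75.6 and 71.8 RPKM at 33 h (3.97 ± 0.16) and creatine kinase Ckb 0.0844 and 0.125 RPKM at 10 h and 1.82 and 1.505 RPKM at 33 h (4.00 ± 0.45). Spred2, an inhibitor of Ras signalling, and Dmwd rose by 3.89 and 4.17.

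**Figure D5:**
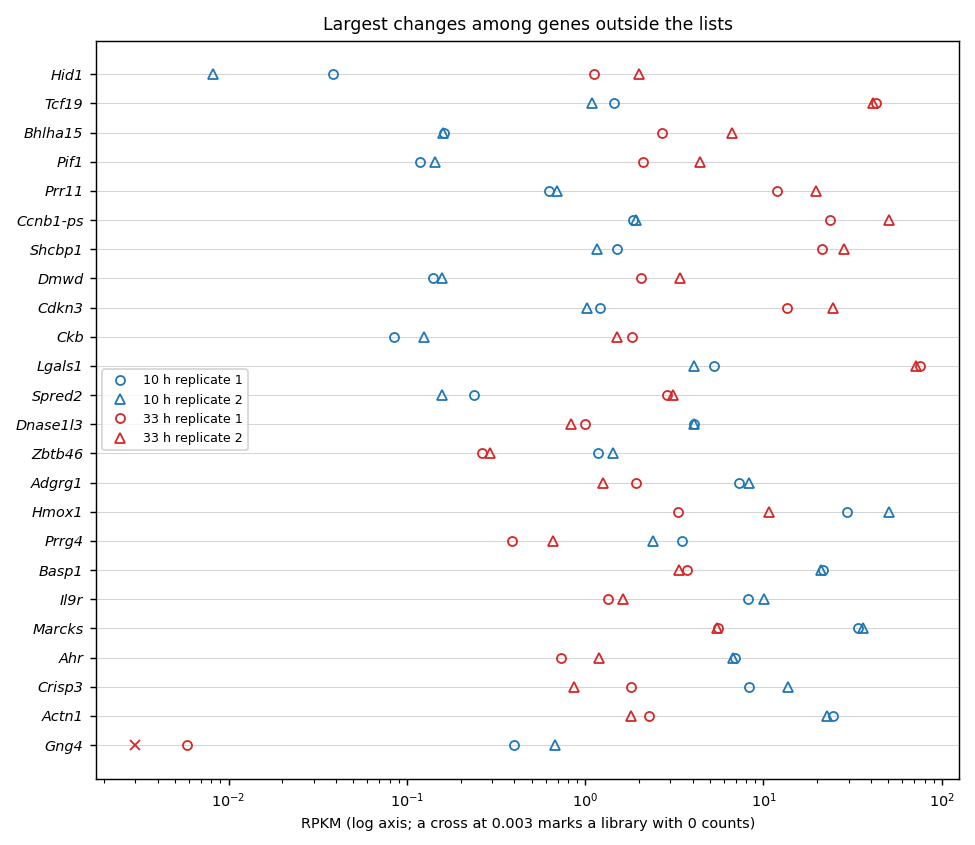
RPKM (log axis) in each 10 h (blue) and 33 h (red) library for the 12 genes with the largest rises and the 12 with the largest falls outside the gene lists, circles for replicate 1 and triangles for replicate 2. The genes were chosen for having no overlap between the 10 h and 33 h libraries, and Gng4 has 1 and 0 counts at 33 h.

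Among the falls, Marcks and Basp1 encode proteins that bind acidic lipids at the inner face of the plasma membrane. Marcks measured 33.8 and 36.3 RPKM at 10 h and 5.55 and 5.49 RPKM at 33 h (-2.66 ± 0.08, adjusted p = 9.2e-10) and Basp1 21.5 and 21.1 RPKM at 10 h and 3.71 and 3.37 RPKM at 33 h (-2.59 ± 0.12, adjusted p = 1.4e-08), and the actin crosslinker Actn1 24.7 and 22.6 RPKM at 10 h and 2.29 and 1.82 RPKM at 33 h (-3.52 ± 0.18, adjusted p = 4e-08). The replicates of these 3 genes agreed closely at both times. The aryl hydrocarbon receptor Ahr measured 6.93 and 6.71 RPKM at 10 h and 0.734 and 1.20 RPKM at 33 h (-2.84 ± 0.19), the cytokine receptor Il9r 8.18 and 10.0 RPKM at 10 h and 1.35 and 1.64 RPKM at 33 h (-2.62 ± 0.17) and the nuclease Dnase1l3 4.05 and 4.09 RPKM at 10 h and 0.992 and 0.832 RPKM at 33 h (-2.14 ± 0.17). Adgrg1, Zbtb46 and Prrg4 fell by 2.27, 2.23 and 2.54, and Crisp3 by 2.97, or 3.65 without 33 h replicate 1.

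Gng4, a G protein subunit, had 57 and 76 counts at 10 h and 1 and 0 counts at 33 h, a ratio of summed, scaled counts of 0.0069 (95% exact interval 0.00017 to 0.039, counting error only), and its peak was at 3 h at 26.7 ± 4.997 RPKM (SD, n = 2). Heme oxygenase Hmox1 measured 29.5 and 50.4 RPKM at 10 h and 3.31 and 10.8 RPKM at 33 h (-2.54 ± 0.60, adjusted p = 0.039), and was not called without 10 h replicate 1 (-2.87), 10 h replicate 2 (-2.10) or 33 h replicate 1 (-1.89), with -3.58 without 33 h replicate 2, nor when only the 4 libraries were fitted (adjusted p = 0.15). Of all 567 genes that fell, 245 had their highest stage mean at 3 h and 153 at 10 h, and of the 1288 that rose, 388 had it in plasmablasts, 363 at 33 h and 267 in expanded B cells.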

How the data were processed

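RNA-Seq of 12 libraries, 2 for each of 6 stages, was used as raw counts per gene and exon lengths that the authors deposited. Alignment to mm10 was done with Rsubread and counting over its inbuilt Entrez annotation with featureCounts (base calls by CASAVA 1.8.2, per the labels). The strand setting was not given in the sources used here. Each sample's own file held the counts of its column in the table of the series (12 of 12). As in the study, 1904 unmatched IDs, 33 ribosomal RNA genes, 1279 X or Y genes, 15 mitochondrial genes and 248 immunoglobulin variable segments were left out, which leaves 23700 of 27179 genes, and filterByExpr kept 12750. Counts were TMM-scaled and fitted over all 12 libraries in edgeR 4.0.16 (limma 3.58.1, R 4.3.3) with robust quasi-likelihood dispersions, a one-way layout by stage and no block, and 33 h was tested against 10 h by glmTreat with a fold of 1.5 and a Benjamini-Hochberg adjusted p under 0.05. The SE is a Wald standard error from the same fit. RPKM used the counts in tested genes times the TMM factor as library size. Depth sets a floor of 3 counts, 0.05 to 0.08 CPM in the 4 libraries, and covers counting error only.

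Named genes were 5 markers, up to 4 called and 2 abundant uncalled members of each list, the 12 largest called rises and 12 falls outside the lists with a mean of at least 3 log2 CPM and no overlap of the 10 h and 33 h libraries, and list members on the X chromosome. Genes that complete a count of 5 or fewer, and the printed promoters, were chosen after their values were seen. The members and lists were chosen with earlier results of these data known. Alternatives were other scalings, DESeq2 1.42.0, the F-test, other filters, no robust mode, a replicate block, 4 libraries alone, removed genes kept, thinning to the smallest total and leaving out each library. The fit was tested on simulated data. Some genes of the lists are counted but not reported here by name.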

Additional observations from a re-analysis of the deposited data

Results flagged for a closer look

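Genes on the X chromosome were left out of the main comparison, as in the study, and were tested in a fit that kept the removed genes. In that fit 1302 of all 13854 tested genes rose and 651 fell. Of 21 X-linked list members then tested by glmTreat, 5 rose and 1, Tsc22d3, fell (-1.77). The replication polymerase subunit Pola1 (2.01), the Fanconi gene Fancb (1.87), the centromere gene Cenpi (3.01) and the chromokinesin Kif4 (4.27) rose on the log2 scale, as did Suv39h1 (0.98), a heterochromatin methyltransferase. All of these but Suv39h1 belong to the cell cycle lists, of whose tested members 68.6% rose in the main comparison. Kif4 measured 1.07 and 0.858 RPKM at 10 h and 16.3 and 21.1 RPKM at 33 h, and Cenpi 1.17 and 0.786 RPKM at 10 h and 7.39 and 8.47 RPKM at 33 h, with no overlap of the libraries.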

How the results depend on the processing

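Of 131 called genes named with values in the text, 111 were tested and called under every alternative, 6 were not tested with at least 10 counts asked of each of the 4 libraries and were called under the others, and none of the 131 changed sign. The 208 rises in the cell cycle lists stayed between 198 and 246 under all alternatives. Without a fold threshold the F-test called 2964 genes up and 2834 down, 15 cell cycle list genes down, and 178 up and 159 down in the other lists. DESeq2's Wald test called 272 genes down, and of its 1259 calls 78.4% were up, against 69.4% of 1855 in the report. With at least 10 counts in each of the 4 libraries, 1 cell cycle list gene fell, since Cdkn1c was then not tested. Leaving out 1 library gave between 357 and 479 falls over all genes, the lowest without 10 h replicate 2 and 371 without 33 h replicate 2, and a fit with 1 library at a time point assumes that it varies like the other stages. Ctcf turned to -0.0068 with library size alone, against 0.05. The replicate block called 1283 genes up and 570 down, 1853 in all, 1816 of them shared with the 1855. Replicate numbers did not pair the libraries (correlation of replicate deviations across genes -0.04 between 10 h and 33 h, and between -0.14 and 0.08 over all pairs of stages), and under the block 206 cell cycle list genes rose and 3 fell, 78 and 51 of the other lists did, and no gene named with values lost its call. Scaling by size alone shifted the median of all genes by -0.06. With 2 libraries a stage and floors near 0.05 CPM, changes of scarce genes such as Il1b and Gng4 were bounded by counts alone.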

Other observations

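Of 28 DNA methylation and Polycomb genes 6 rose (21.4%) and 1, Jarid2, fell (3.57%), against 10.1% and 4.45% of all tested genes. Dnmt1, the maintenance DNA methyltransferase, measured 25.0 and 20.6 RPKM at 10 h and 85.0 and 90.9 RPKM at 33 h (1.95 ± 0.10, edgeR glmTreat adjusted p = 6.8e-08), and its guide to hemimethylated DNA, Uhrf1, 29.7 and 21.8 RPKM at 10 h and 137 and 145 RPKM at 33 h (2.45 ± 0.13, adjusted p = 8.6e-08). The Polycomb methyltransferase Ezh2 rose from 44.6 and 36.5 RPKM to 116 and 143 RPKM (1.67 ± 0.13) and its cofactor Phf19 from 3.94 and 3.44 RPKM to 16.6 and 17.7 RPKM (2.22 ± 0.12), while the core subunit Suz12 was at 47.9 and 48.7 RPKM at 10 h and 60.2 and 61.8 RPKM at 33 h (0.34 ± 0.10) and not called. Without 33 h replicate 1 the falls were 2.

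Of 22 nuclear lamina and heterochromatin genes 4 rose (18.2%, against 10.1% of all tested genes), Tmpo the least, and none fell by glmTreat. By the F-test 13 rose and 4 fell. Lmnb1 (lamin B1) measured 49.1 and 46.2 RPKM at 10 h and 144 and 171 RPKM at 33 h (1.72 ± 0.10, adjusted p = 3.7e-07), the chromatin protein Hmgb2 7.03 and 7.90 RPKM at 10 h and 34.1 and 47.3 RPKM at 33 h (2.45 ± 0.18, adjusted p = 2.8e-06) and the remodeler Hells 21.3 and 15.2 RPKM at 10 h and 65.0 and 75.2 RPKM at 33 h (1.94 ± 0.15, adjusted p = 4.8e-06), with both 33 h libraries higher in each. Lbr, which anchors heterochromatin to the lamina, stood at 52.3 and 55.9 RPKM at 10 h and 87.8 and 99.5 RPKM at 33 h (0.79 ± 0.17, adjusted p = 0.2), and was called with no filter on low counts (0.82, adjusted p = 0.019) and with only the 4 libraries (0.82, adjusted p = 0.044). The count of rises was 7 without 33 h replicate 1 and also with DESeq2's size factors or with only the 4 libraries.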
